A study of Mus musculus with 45 samples.

Results

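The collagen-rich and collagen-poor tumours were the 2 ends of a ranking of 45 mouse mammary tumours by the RNA of 4 collagen genes. Each tumour was given a collagen score, the mean log2 value of Col1a1, Col1a2, Col3a1 and Col5a1. The 12 tumours with the highest score form the collagen-rich set and the 12 with the lowest score the collagen-poor set, so that 24 of the 45 tumours were compared and 21 lay between them. The members were thus chosen by the measured levels of these 4 genes on the same arrays, and the sets are not groups of the study. A test of another gene between the sets therefore measures how far that gene goes with the collagen level over these tumours. The tests of host dose and of the interaction with host irradiation ask other questions.

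The tumours arose from Trp53-null mammary fragments of BALB/c donors. Hosts were wild-type BALB/c females of 10 weeks, cleared of mammary epithelium at an age of 3 weeks, and the fragments went into the inguinal fat pad. Hosts received Si ions or no irradiation 3 days before the transplantation; the fragments themselves were not irradiated. The sham group had 18 tumours, and the Si groups had 9 (10 cGy), 10 (30 cGy) and 8 (80 cGy), all taken at a size of 1 cm3 within 600 days of follow-up. All tumours, those of sham hosts included, lack Trp53, and each was measured whole on 1 single-colour array. In such bulk RNA, fewer cells of a type and less RNA per cell cannot be told apart. The labels do not say whether tumours whose codes share a stem came from 1 host. There were 8 such pairs. None of them had both tumours in the collagen-rich or both in the collagen-poor set (0 of 8), 1 pair lay among the middle tumours, and 2 pairs had 1 tumour in each set. P-values below set a difference against the spread between these tumours. Both tumours of each such pair had the same host dose, and the tests of host dose counted them as separate tumours.

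Type I collagen is built from the chains of Col1a1 and Col1a2, type III from Col3a1, and type V, which sets the diameter of the fibrils, contains the chain of Col5a1. The chains are hydroxylated and folded into a triple helix in the endoplasmic reticulum, secreted, trimmed at their ends by proteases and then cross-linked by lysyl oxidases. In the mammary gland and its tumours, fibroblasts make most of this matrix, and proteases of fibroblasts, macrophages and tumour cells take it down.

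Col1a1 ranged from 11.72 to 12.77 (median 12.22) in the collagen-rich tumours and from 8.46 to 10.40 (median 9.75) in the collagen-poor ones. Col3a1 ranged from 10.11 to 11.58 (median 10.58) and from 6.71 to 8.67 (median 8.03). For all 4 genes the sets lay apart, as the ranking made likely, and no test was made. The mean difference was 2.53 log2 for Col1a1 (5.77-fold), 2.56 for Col1a2 (5.91-fold), 2.81 for Col3a1 (7.02-fold) and 1.85 for Col5a1 (3.62-fold). The 4 genes moved together over the 45 tumours, with pairwise Pearson correlations between 0.927 and 0.973 as a description. The choice of a single gene hardly mattered: without Col3a1 in the score 11 of the 12 collagen-rich tumours stayed in their set, and without any one of the other 3 genes both sets were unchanged.

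**Figure D1:**
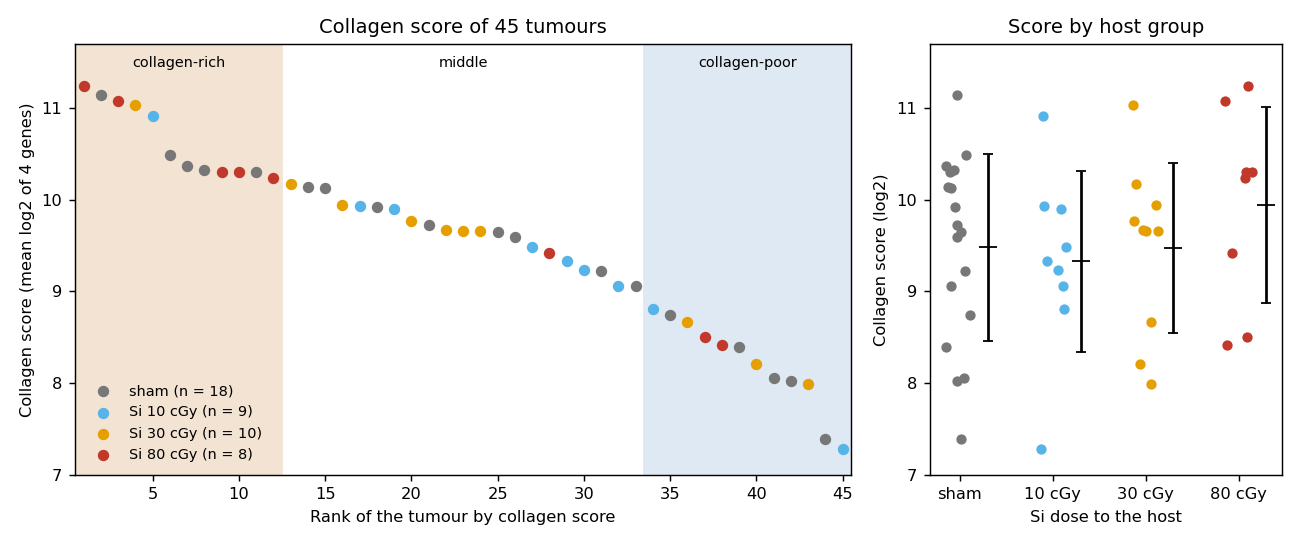
Collagen score (mean log2 of 4 collagen genes) of each of 45 tumours, ordered by rank (left) and by host group with the mean and SD (right); shaded areas mark the collagen-rich and collagen-poor sets. The scores run from 11.24 down to 7.29, and each host group has tumours in both shaded areas.

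The ranking was continuous at both limits. The score was 10.24 in the last collagen-rich tumour and 10.17 in the next below it, and it was 9.06 in the last middle tumour and 8.80 in the first collagen-poor one. The mean score was 10.65 ± 0.40 (SD, n = 12) in the collagen-rich set, 9.65 ± 0.34 (n = 21) in the middle and 8.21 ± 0.49 (n = 12) in the collagen-poor set.

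No difference between the sets in host dose passed its test. The collagen-rich set held 5 tumours of sham hosts, 1 at 10 cGy, 1 at 30 cGy and 5 at 80 cGy. The collagen-poor set held 5 sham tumours, 2 at 10 cGy, 3 at 30 cGy and 2 at 80 cGy (Fisher's exact test over the 4 groups, two-sided p = 0.517). Tumours of Si hosts made up 7 of 12 in each set. Of the 8 tumours at 80 cGy, 5 (62.5%) were collagen-rich, against 5 of 18 sham tumours (27.8%). Within the sets, 80 cGy against all other groups gave p = 0.371 (Fisher's exact test, two-sided). Some of these tumours had the high muscle gene level described further on. Without such tumours the collagen-rich set held 3 at 80 cGy and 3 sham tumours. The score itself averaged 9.48 ± 1.02 (SD, n = 18) in sham hosts, 9.33 ± 0.99 (n = 9) at 10 cGy, 9.48 ± 0.93 (n = 10) at 30 cGy and 9.94 ± 1.07 (n = 8) at 80 cGy. The 80 cGy tumours exceeded sham by 0.46 ± 0.45 log2 (SE; exact permutation test, two-sided p = 0.307, adjusted p = 0.988 over the 4 score comparisons). Without the tumours of high muscle level this excess was 0.34 ± 0.51 (SE, exact permutation test, two-sided p = 0.503). Si hosts together differed from sham by 0.08 ± 0.31 (SE; permutation test, two-sided p = 0.790). The difference at 80 cGy with all tumours was about as large as its SE, with 8 tumours in that group. Scores of sham tumours alone spanned from 7.39 to 11.15.

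Across the other 12119 genes tested, 2871 (23.7%) differed between the sets at an adjusted p under 0.05 (limma with Benjamini-Hochberg adjustment), and such genes are called changed below. Of these, 1511 (12.5%) were higher in collagen-rich tumours and 1360 (11.2%) lower. Differences of at least 1 log2 were mostly in 1 direction, with 660 genes higher and 274 lower. For 92 genes (0.759%) the ranges of the 12 and the 12 tumours did not overlap, and 89 of them (0.734%) were above in the collagen-rich set. The 3 that were below (0.0248%) were Mettl27, Ccni and the transcription factor gene Nfib. The median difference over all genes tested was -0.07 log2. Counts over the lists below are to be read beside these shares of all genes tested. Some lists had a share called below 23.7%. These include the contractile (21.1%), T and NK cell (18.2%), TGF-beta target (15.4%) and unfolded protein response (15%) lists, whose counts do not set them apart from other genes. A gene entered the test if it was above the array table's median in at least 8 tumours; one that is high in a single set can pass through that set, so counts over lists are descriptions. With no such filter 1552 genes were higher and 1258 lower.

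The largest rises were in matrix proteases, proteoglycans and fibroblast genes. Mmp3, stromelysin, ranged from 6.89 to 12.35 (median 10.19) in collagen-rich tumours and from 4.40 to 7.33 (median 6.60) in collagen-poor ones, a difference of 3.52 ± 0.51 log2 (SE; adjusted p = 2.59e-05). The 2 ranges overlapped slightly, at the collagen-poor set's upper end. After it came Ogn (3.41), Lum (3.31), Dpt (3.18), Mmp13 (2.99), Efemp1 (2.92), Abi3bp (2.92), Mmp9 (2.91), Lrrc15 (2.85), Tnn (2.82), Cpxm1 (2.78), Lox (2.78), Mrc1 (2.77), Grem1 (2.73) and Thbs2 (2.73), all in log2 and all called. Ogn, Lum, Abi3bp, Cpxm1, Lox and Thbs2 had ranges that did not overlap between the sets.

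**Figure D2:**
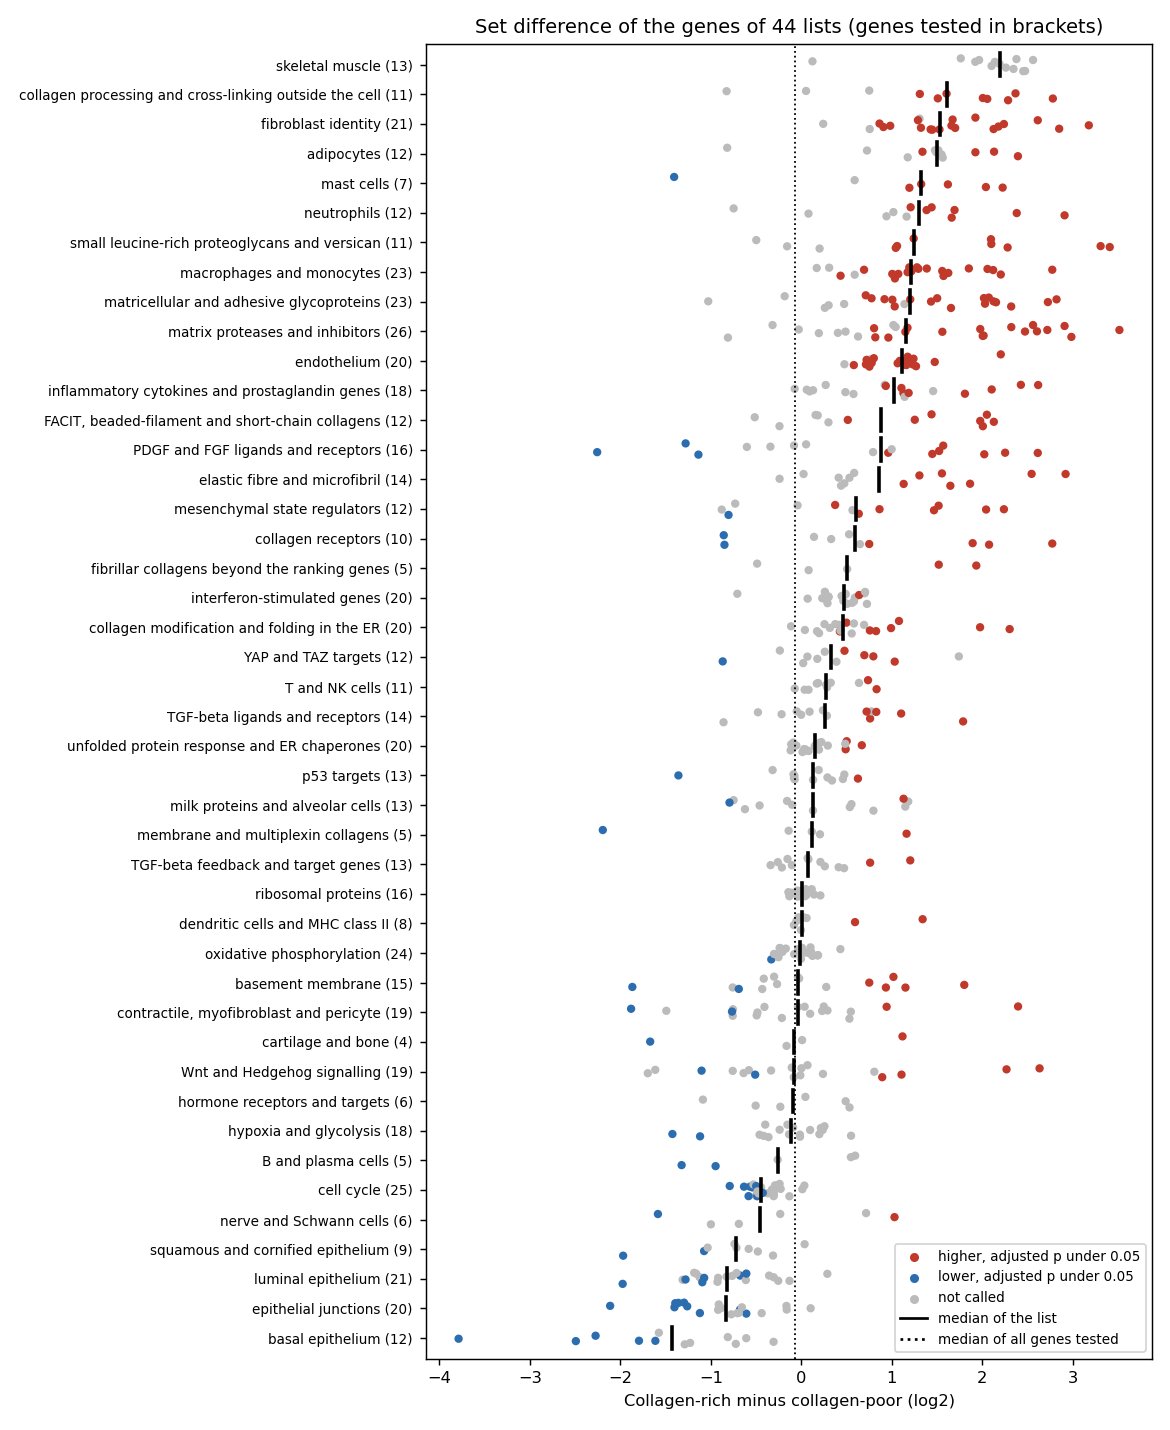
Difference between the sets (collagen-rich minus collagen-poor, log2) for each tested gene of 44 gene lists, one dot per gene, with the list median as a bar and the median of all genes tested as a dotted line. Lists of matrix, fibroblast, macrophage and endothelial genes lie to the right, with medians between 1.12 and 1.61 for the cross-linking, fibroblast, macrophage and endothelial lists; epithelial lists lie to the left.

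Other collagens followed the ranking genes in part. Of 5 further fibrillar collagen genes tested, Col5a2 (1.93 ± 0.26 log2, adjusted p = 1.47e-05) and Col5a3 (1.52 ± 0.21, adjusted p = 1.68e-05), the partner chains of type V collagen, were higher. Col27a1 (0.51) and the cartilage collagen Col2a1 (-0.49) did not pass the test. Among 12 tested collagens that sit on fibrils or form beaded filaments and networks, 7 rose and 0 fell (median 0.88). All 3 main chains of the beaded type VI collagen rose, Col6a1 by 2.05, Col6a2 by 2.13 and Col6a3 by 1.98 log2. Col12a1 (2.01), Col8a1 (1.44), Col14a1 (1.25) and Col6a6 (0.51) rose as well. The rise of Col14a1 was not called without the 5 tumours of high muscle gene level described further on (1.36).

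Of 5 tested membrane and multiplexin collagens 1 rose and 1 fell. Col15a1, found at vessel and muscle basement membranes, ranged from 7.57 to 9.41 in the collagen-rich set and from 6.84 to 8.25 in the collagen-poor set, and rose by 1.16 ± 0.21 log2 (adjusted p = 0.000393). Col17a1, a hemidesmosome collagen of basal epithelial cells, went the other way. It lay between 5.30 and 9.90 (median 5.62) in the collagen-rich and between 5.88 and 10.26 (median 9.01) in the collagen-poor tumours, lower by a fitted log2 difference of -2.19 ± 0.55 (adjusted p = 0.00584). The ranges overlapped widely, and the medians were far apart.

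Basement membrane genes had no common direction, with 5 of 15 tested higher, 2 lower and a list median of -0.04. Nid1, which links laminin to type IV collagen, rose by 1.80 ± 0.21 log2 with no overlap between the sets (adjusted p = 1.34e-06). Lama2 (1.15), Lamb1 (1.02), the perlecan gene Hspg2 (0.94) and Lama4 (0.75) rose too. The laminin chains of epithelial basement membranes moved the opposite way, Lama1 by -1.87 and Lama5 by -0.69. The type IV chain gene Col4a2 differed by -0.27 ± 0.24 and was not called (adjusted p = 0.431).

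Inside the cell, 8 of 20 tested genes of collagen modification and folding rose and 0 fell (median 0.47). P4ha3, a prolyl 4-hydroxylase subunit, ranged from 8.10 to 10.20 (median 9.02) in collagen-rich and from 6.27 to 7.83 (median 6.84) in collagen-poor tumours. It rose by 2.30 ± 0.24 log2 (adjusted p = 4.32e-07), and no collagen-poor tumour reached the lowest collagen-rich one. Creb3l1, a membrane-bound transcription factor that drives collagen genes in bone, rose by 1.98. Smaller rises were seen for the prolyl 3-hydroxylases P3h3 (1.08) and P3h1 (0.99), the coat protein gene Sec23a (0.83) needed to export procollagen, the collagen chaperone gene Serpinh1 (0.76), P4hb (0.50) and the lysyl hydroxylase gene Plod3 (0.43). Plod2 (0.69, adjusted p = 0.0733) and P4ha2 (0.56, adjusted p = 0.180) did not pass. Of general chaperones and other genes of the unfolded protein response, 3 of 20 tested were called, with a median of 0.16.

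Of 11 tested genes acting on secreted procollagen, 8 were higher, 0 were lower and the median was 1.61. Lox, lysyl oxidase, ranged from 9.41 to 11.64 (median 10.13) in the collagen-rich and from 6.20 to 8.63 (median 7.67) in the collagen-poor set, a rise of 2.78 ± 0.29 log2 (adjusted p = 4.51e-07). Its relatives Loxl1 (2.37 ± 0.20) and Loxl2 (2.29 ± 0.31) rose too, and Lox and Loxl1 showed no overlap between the sets. The enzymes that trim the ends of procollagen rose as well, Adamts14 by 2.06, Bmp1 by 1.51 and Tll1 by 1.31, together with the enhancers of that cut, Pcolce2 (2.01) and Pcolce (1.61).

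Small proteoglycans that coat collagen fibrils rose in 8 of 11 tested genes, with 0 lower and a median of 1.24. Lum, lumican, ranged from 8.28 to 10.79 (median 9.44) against 4.76 to 7.68 (median 6.12), with a difference of 3.31 ± 0.35 log2 (adjusted p = 4.8e-07). Ogn, Podn, Aspn and Bgn also had sets that did not overlap, with differences of 3.41, 2.28, 2.10 and 1.06. Decorin (Dcn) rose by 2.10 and versican (Vcan) by 1.24.

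Among matricellular and adhesive glycoproteins, 17 of 23 tested were higher and 0 lower (median 1.20). Thbs2, a thrombospondin that regulates fibril assembly, ranged from 10.93 to 12.64 in collagen-rich and from 7.71 to 10.49 in collagen-poor tumours (2.73 ± 0.28 log2, adjusted p = 4.46e-07). Tnn (2.82), Cthrc1 (2.15), Ccn4 (2.07), Spon1 (2.03), fibronectin (Fn1, 1.50), Tgfbi (1.20) and Sparc (0.71) rose. Periostin (Postn), often taken as a marker of activated stroma, was high in both sets. It ranged from 11.73 to 12.95 (median 12.38) and from 10.50 to 13.02 (median 11.88), a difference of 0.47 ± 0.23 that was not called (adjusted p = 0.126). Ccn2 differed by 0.26 ± 0.22 (adjusted p = 0.412). Of 14 elastic fibre and microfibril genes tested, 7 rose, led by Efemp1 (2.92) and Mfap5 (2.55), whereas elastin itself (Eln, 0.53) was not called.

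Proteases that degrade matrix were higher in the same tumours, in 17 of 26 tested genes of proteases and their inhibitors, with 0 lower (median 1.16). Mmp2, a gelatinase of fibroblasts, ranged from 10.56 to 12.59 and from 8.21 to 10.55 in the 2 sets, which just failed to meet (2.32 ± 0.24 log2, adjusted p = 4.65e-07). Cathepsin K (Ctsk, 2.60), Mmp19 (2.56) and Adamts12 (1.98) had no overlap either. The collagenase gene Mmp13 varied most within the collagen-rich set, from 4.87 to 13.07 (median 11.32), against 5.07 to 9.31 (median 7.61) in the collagen-poor set. Its difference was 2.99 ± 0.73 (adjusted p = 0.00462), and at least 1 collagen-rich tumour lay below the whole collagen-poor range. Mmp14, the membrane-bound collagenase that activates Mmp2 protein, rose by 1.15. The inhibitors rose with the proteases in the case of Timp1 (2.47 ± 0.34) and Timp2 (0.96 ± 0.23), while Timp3 (0.19 ± 0.28) was not called.

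Of 10 collagen receptor genes tested, 4 were higher and 2 lower (median 0.59). Itga11, the integrin chain by which fibroblasts grip fibrillar collagen, ranged from 6.26 to 9.18 (median 7.77) and from 5.30 to 6.16 (median 5.77), with no overlap (1.89 ± 0.27 log2, adjusted p = 2.13e-05). The endocytic collagen receptors Mrc1 (2.77) and Mrc2 (2.08) and the integrin beta chain Itgb1 (0.75) were higher. Ddr1, the discoidin receptor of epithelial cells, was lower (-0.85 ± 0.18, adjusted p = 0.0018), and Ddr2, that of mesenchymal cells, was at 0.65 ± 0.36 and not called (adjusted p = 0.191). Without the tumours of high muscle gene level Ddr2 was called, at 1.18.

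**Figure D3:**
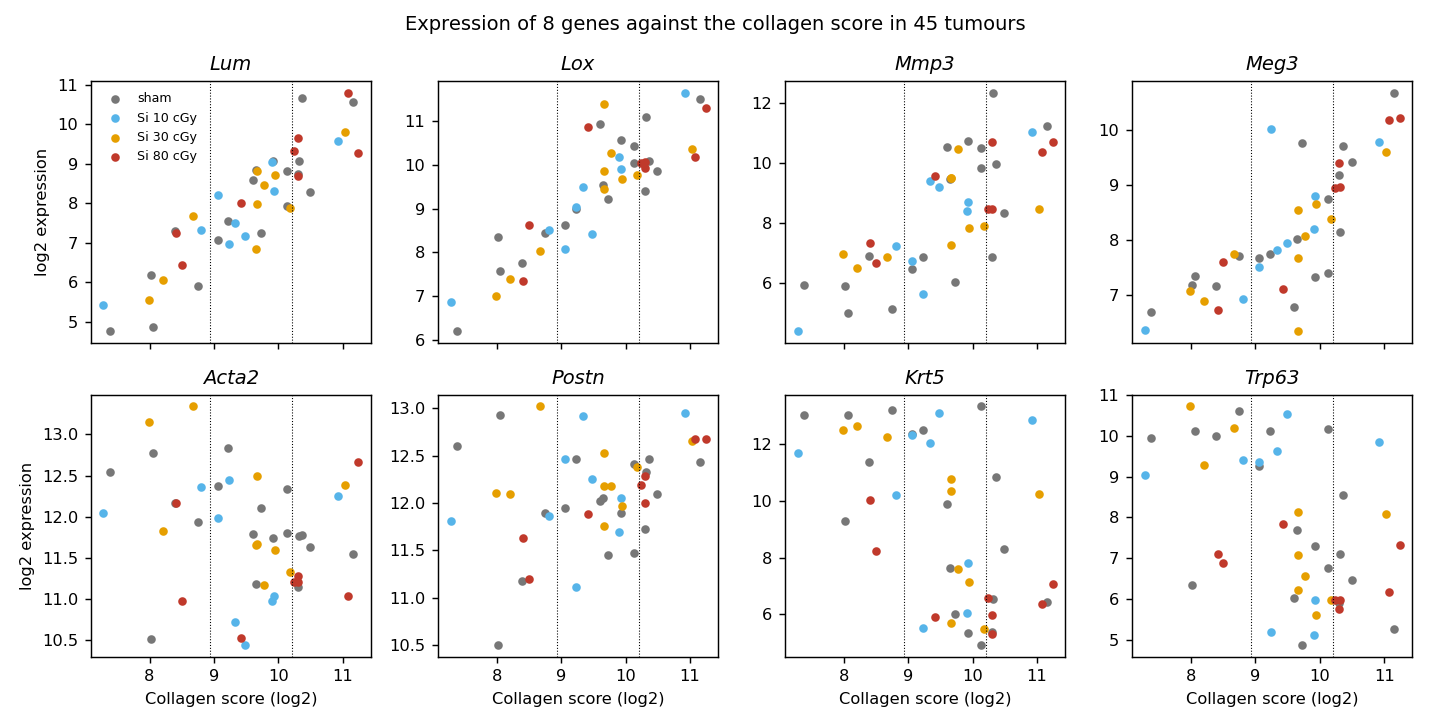
Log2 expression of 8 genes against the collagen score in 45 tumours, coloured by host group; dotted lines mark the limits of the sets. Lum and Lox climb along the whole score, Acta2 and Postn do not, and Krt5 and Trp63 are scattered over a wide range in the middle tumours.

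Fibroblast identity genes rose in 18 of 21 tested, with 0 lower and a median of 1.53, and the marker check of the collagen-rich label was met for Pdgfra, Pdgfrb, Dcn, Lum and Fap but not for Postn. Pdgfra ranged from 8.40 to 10.90 (median 9.87) and from 5.52 to 9.75 (median 6.92) and rose by 2.61 ± 0.39 log2 (adjusted p = 3.58e-05). Cdh11, a cadherin of fibroblasts, rose by 2.13 ± 0.24 with no overlap. Dpt (3.18), Lrrc15 (2.85), Twist2 (2.24), Thy1 (1.70), Fap (1.67), Pdgfrb (1.45) and Twist1 (0.86) rose too. Without a filter on low values the count was 18 of 22.

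Contractile genes of myofibroblasts, smooth muscle and pericytes did not go with collagen as a list, since 2 of 19 tested were higher, 2 were lower and the median was -0.04. Acta2, smooth muscle actin, ranged from 11.04 to 12.67 (median 11.59) in collagen-rich tumours and from 10.51 to 13.34 (median 12.16) in collagen-poor ones, a difference of -0.49 ± 0.27 log2 that was not called (adjusted p = 0.182). The collagen-poor set thus spanned the whole collagen-rich range. Tagln (-0.21 ± 0.39), Myl9 (-0.76 ± 0.41) and the pericyte gene Rgs5 (0.29 ± 0.28) were not called either. Cnn1 (-1.88 ± 0.64, adjusted p = 0.0337) and Mylk (-0.77 ± 0.25, adjusted p = 0.0281) fell, and the pericyte channel gene Abcc9 (0.94 ± 0.24) rose. Desmin (Des), which skeletal muscle also makes, rose by 2.40, but by 0.44 and without a call once tumours of high muscle gene level were left out. Basal mammary epithelium also makes Acta2, Cnn1 and Myl9, and basal genes fell in the same comparison, as given below; the part of these cells in the contractile values was not tested.

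Of TGF-beta ligands, receptors and activators, 5 of 14 tested rose and 0 fell (median 0.26). Tgfb1, the main ligand of the family in stroma, ranged from 9.36 to 10.71 and from 8.71 to 10.40, a rise of 0.76 ± 0.20 log2 (adjusted p = 0.00753). The activin chain gene Inhba (1.79), Lrrc32 (1.10), which tethers latent TGF-beta on cell surfaces, and the endothelial receptors Acvrl1 (0.83) and Eng (0.72) rose as well. Target and feedback genes of the pathway moved little. Tgfbi (1.20) and Smad7 (0.76) rose among 13 tested, with a median of 0.08, and Pmepa1 (0.47 ± 0.23, adjusted p = 0.129) was not called.

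A list of growth factors and receptors, of the PDGF and FGF families with Igf1, Igf2 and Hgf added, had 7 of 16 tested genes higher and 3 lower (median 0.88). Higher were the mesenchymal receptors Pdgfra and Pdgfrb and the growth factors Igf1 (2.25 ± 0.33 log2), Fgf7 (2.02 ± 0.40), Fgf2 (1.57 ± 0.23) and Pdgfd (1.52 ± 0.37). Igf1 ranged from 8.03 to 9.79 in the collagen-rich tumours and from 5.36 to 9.26 in the collagen-poor ones. Lower was Fgfr2, whose epithelial form binds Fgf7, at -2.26 ± 0.58 (adjusted p = 0.00669). Of the secreted Wnt modulators, Sfrp2 (2.63) and Sfrp4 (2.27) rose.

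A list of mesenchymal transcription factors together with Vim and Cdh2 had 7 of 12 tested genes higher and 1 lower (median 0.60). Snai1 rose by 2.04 ± 0.31 log2 (adjusted p = 5.28e-05), Zeb2 by 1.52, Zeb1 by 1.47 and vimentin (Vim) by 0.64. Snai2, which basal mammary cells also express, did not share this direction (-0.88 ± 0.50, adjusted p = 0.198).

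The genes that were lower in collagen-rich tumours were led by those of basal epithelium. Krt5, a basal keratin, ranged from 5.33 to 12.86 (median 6.57) in the collagen-rich and from 8.22 to 13.21 (median 11.96) in the collagen-poor set, a difference of -3.79 ± 0.79 log2 (adjusted p = 0.00125). Trp63, the regulator of basal identity, ranged from 5.26 to 9.86 (median 6.32) and from 6.35 to 10.72 (median 9.67), a difference of -2.27 ± 0.55 (adjusted p = 0.00461). The sets overlapped for both genes: 4 of the 12 collagen-rich tumours reached the collagen-poor range of Krt5 and 6 of the 12 that of Trp63. Of 12 basal genes tested, 5 fell and 0 rose (median -1.43), and Krt14 (-1.57 ± 0.61, adjusted p = 0.0632) did not pass.

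Other members of the 15 largest falls were Trim29 (-3.22), the homeobox gene Irx4 (-3.01), Bmp7 (-2.96), Igfbp2 (-2.87), Il17b (-2.73), the desmosomal cadherin Dsc3 (-2.49), Vsnl1 (-2.37), Fgfr2 (-2.26), Id4 (-2.24), Slc5a8 (-2.21), Krt23 (-2.20), Col17a1 (-2.19) and Phyhip (-2.19), all in log2. Bmp7 ranged from 4.96 to 9.74 (median 7.22) and from 8.24 to 11.76 (median 10.41) and had the smallest adjusted p of these (0.000116).

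Of 21 luminal genes tested, 6 fell and 0 rose (median -0.83), among them the luminal regulator Foxa1 (-1.97) and Cldn3 (-1.28). The share called was 28.6%, against 23.7% of all genes tested called in either direction and 11.2% called lower. The keratin genes shared by luminal cells did not pass, with Krt8 at -0.13 ± 0.29 log2 (adjusted p = 0.777) and Krt18 at -0.36 ± 0.33 (adjusted p = 0.443). Of 20 junction genes tested, 9 fell (median -0.83), led by desmoplakin (Dsp, -2.11 ± 0.52) and including E-cadherin (Cdh1, -1.12 ± 0.40, adjusted p = 0.0417). The junction list, as the mean of its genes each centred on its mean over the 45 tumours, ranged from -1.70 to 0.62 in the collagen-rich set, from -0.13 to 1.38 in the collagen-poor set and from -2.34 to 1.15 in the middle. Only 2 collagen-rich tumours lay below -1, against 7 in the middle and 0 in the collagen-poor set. With this level as a covariate, 963 genes were called (617 higher, 346 lower), and no gene of the basal, luminal or junction lists remained called, Krt5 standing at -3.10 and Trp63 at -2.19. The junction genes, Cdh1 and Dsp among them, make up this covariate, so the loss of their own calls or a change of their sign is not a result. Luminal and basal genes are epithelial too, and how far they share this level was not tested. Krt8 (0.55), Krt18 (0.52), Cdh1 (0.30) and Cldn3 (0.10) then changed sign. In that fit 13 of 21 fibroblast, 7 of 11 cross-linking, 7 of 11 proteoglycan and 10 of 26 protease genes were called higher. Over all 12119 genes tested, 617 were.

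Of the 153 named genes called between the sets, 59 were not called with the junction covariate. Among the largest falls, Slc5a8 stood at -0.72, Krt23 at -0.91 and Id4 at -1.42, and Foxa1 (-1.15), Dsp (-0.81), Krt17 (-0.27) and Kit (-0.41) were smaller too. Dsp is itself part of this covariate. Among genes higher in the collagen-rich set, Mmp13 (1.90), Ptgs2 (1.70), Pdgfd (0.93), Vcan (0.82), P3h3 (0.62), Timp2 (0.53), Vim (0.42) and Plod3 (0.23) lost their calls and were over 1.5 times smaller. Calls were also lost for the matrix and signalling genes Grem1, Pcolce2, Serpinh1, P4hb, Lama2, Lama4, Lamb1, Lama5, Ddr1, Tgfb1, Inhba, Eng, Smad7 and Twist1, the contractile genes Cnn1, Mylk, Des and Abcc9, and the division genes Mki67 and Kif11. Il17b, Dsc3, Vsnl1, Fgfr2, Col17a1, Phyhip, Nfib, Ccl2, Cxcl5 and Pou2af1 lost theirs as well.

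Macrophage and monocyte genes were higher in 20 of 23 tested, with 0 lower and a median of 1.22. Csf1r, the receptor for macrophage growth factor, ranged from 9.33 to 11.72 (median 10.15) and from 7.61 to 9.87 (median 9.10), a rise of 1.28 ± 0.28 log2 (adjusted p = 0.00206). Mrc1 (2.77), Cd163 (2.12), Itgam (1.85), Adgre1 (1.18) and Cd68 (1.03) rose. The list ran from -0.20 to 1.58 in the collagen-rich set and from -1.71 to -0.13 in the collagen-poor set as a centred mean, so that the 2 barely overlapped. With the junction level as a covariate 8 of 23 macrophage genes were called, against 963 of all 12119 genes tested. Csf1r (0.80), Cd68 (0.67) and Adgre1 (0.64) were not called.

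Neutrophil genes rose in 7 of 12 tested (median 1.30), for example the receptor gene Csf3r (1.44 ± 0.27 log2), while the granule genes S100a8 (0.94 ± 0.45, adjusted p = 0.125) and S100a9 (1.16 ± 0.47, adjusted p = 0.0717) did not pass. With the junction covariate 3 of the 12 were called, against 963 of all 12119 genes tested. The mast cell proteases Cpa3 (2.23), Mcpt4 (2.04) and Tpsb2 (1.33) rose, whereas Kit, made by mast cells and by luminal progenitors, fell (-1.41 ± 0.40, adjusted p = 0.0141). None of the mast cell list was called with the junction covariate. Of 11 T and NK cell genes tested, 2 were higher (median 0.27). Of 5 B and plasma cell genes, 2 fell, including Pou2af1 (-1.32). Chemokines that attract monocytes and neutrophils rose, Ccl7 by 2.43, Cxcl5 by 2.10 and Ccl2 by 1.81, with the prostaglandin synthase gene Ptgs2 (2.62), as part of 8 of 18 tested cytokine and prostaglandin genes. Il6 ranged from 3.89 to 10.32 in the collagen-rich set and was not called (1.46 ± 0.56, adjusted p = 0.0598).

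Endothelial genes rose in 18 of 20 tested, with 0 lower and a median of 1.12. Pecam1 ranged from 8.92 to 10.17 (median 9.43) and from 7.15 to 8.91 (median 8.29), sets that just failed to meet (1.27 ± 0.18 log2, adjusted p = 2.4e-05). Tek (1.47 ± 0.18), Cdh5 (1.23 ± 0.22) and Kdr (1.07 ± 0.17) rose, and Vwf (0.48 ± 0.30, adjusted p = 0.253) was not called. With the junction level as a covariate 13 of 20 endothelial genes were higher, against 617 of all 12119 genes tested. The highest endothelial levels of all were in 2 middle tumours, sham replicate 16 (2.64 as a centred mean of the list) and replicate 1 at 10 cGy (2.70).

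**Figure D4:**
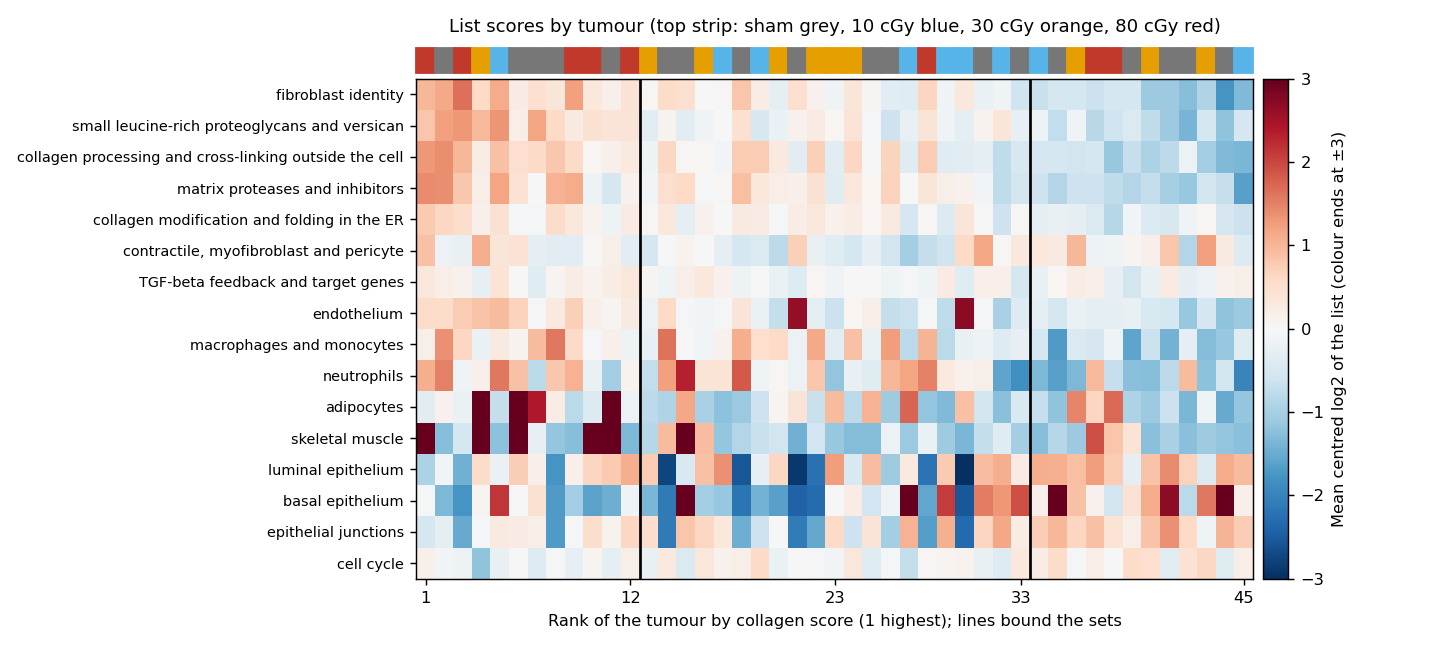
Mean centred log2 level of 16 gene lists (rows) in 45 tumours ordered by collagen score (columns, highest at left); vertical lines bound the sets and the strip on top gives the host group. Set means of the matrix, endothelial and macrophage lists fall from left to right. The highest endothelial (2.70) and macrophage (1.62) levels are in middle tumours. Muscle genes are high in single tumours, 5 of them collagen-rich.

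Muscle and fat genes were very high in some tumours, most of them collagen-rich. The skeletal muscle list, as a centred mean, ranged from -1.36 to 6.35 (median -0.39) in collagen-rich and from -1.27 to 1.92 (median -1.07) in collagen-poor tumours. It exceeded 2 in 5 collagen-rich tumours, 1 middle tumour and 0 collagen-poor ones. The creatine kinase gene Ckm differed by 2.35 ± 0.97 log2 and was not called (adjusted p = 0.0794), and 0 of 13 tested muscle genes passed, with a list median of 2.19. Without the 5 collagen-rich tumours above 2, Ckm differed by -0.20. The adipocyte list exceeded 2 in 4 collagen-rich tumours and in no other tumour. It had 4 of 12 tested genes called (median 1.50), including Fabp4 (2.13 ± 0.57, adjusted p = 0.00875), which endothelium and macrophages also make, but neither Adipoq (1.56, adjusted p = 0.120) nor Plin1 (1.48, adjusted p = 0.127).

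Without the tumours of high muscle level, 1322 genes were higher and 723 lower, and the matrix lists were at least as far apart, with medians of 1.85 for fibroblast, 1.84 for cross-linking and 1.44 for proteoglycan genes. The contractile list then stood at -0.41, Acta2 remaining uncalled, the macrophage list at 1.46 and the endothelial list at 1.08. Of the 153 named genes called with all 24 tumours, 12 were not called then. These were Fabp4 (1.50), Krt17 (-2.14), Col17a1 (-1.95), Cnn1 (-2.13), Foxa1 (-1.80), Vsnl1 (-2.07), Eng (0.68), Pou2af1 (-1.22) and Mir200a (-0.37), besides Des, Col14a1 and Mki67. Calls were gained by Plod2 (0.98), Il6 (2.09) and Ddr2 (1.18).

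Cell division genes were slightly lower in collagen-rich tumours, with 8 of 25 tested called lower, 0 higher and a median of -0.44. Mki67 ranged from 8.98 to 10.17 (median 9.81) and from 9.69 to 11.47 (median 10.21), a difference of -0.54 ± 0.17 log2 (adjusted p = 0.0245). Kif11 (-0.79) and Ccna2 (-0.57) fell as well. Mki67 was not called without the tumours of high muscle level (-0.52). For comparison, 0 of 16 ribosomal protein genes (median 0.01) and 1 of 24 oxidative phosphorylation genes (median -0.01) were called.

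A group of non-coding RNA genes from 1 imprinted interval of chromosome 12, singled out after its values were seen, rose together. Meg3, a long non-coding RNA made from the maternal chromosome, ranged from 8.14 to 10.67 (median 9.50) in collagen-rich and from 6.36 to 7.73 (median 7.10) in collagen-poor tumours. It rose by 2.40 ± 0.22 log2 (adjusted p = 1.33e-07), and every collagen-rich tumour was above every collagen-poor one. Downstream of it in the same direction lie Rian, small nucleolar RNAs and a long row of miRNA genes, while the protein-coding neighbour Dlk1 is expressed from the paternal chromosome.

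The interval held 36 miRNA genes with a probe set of their own. In a fit with no filter on low values, all 36 were higher in the collagen-rich set by any amount (median 0.42 log2). Of them 21 were called higher, against 1552 of all 18816 genes in that fit. Most of the 36 had low values. Some were above the table's median in 0 tumours, such as Mir379 (mean 2.94 against 2.26). With the filter 7 remained, of which 5 were called. These were Mir134 (1.53 ± 0.20 log2), Mir665 (0.88 ± 0.15), Mir485 (0.87 ± 0.16), Mir341 (0.79 ± 0.14) and Mir668 (0.59 ± 0.13). Mir134 ranged from 5.20 to 6.95 and from 3.78 to 5.08, with no overlap. The small nucleolar RNA AF357355 rose by 1.67, and Rian, which the filter removed, by 0.78 in the unfiltered fit. Dlk1 did not go with them (-0.04 ± 0.45, adjusted p = 0.96), ranging from 5.67 to 7.34 and from 5.45 to 10.17. Of 55 miRNA genes elsewhere that passed the filter, 3 were higher and 1 lower, with a median of 0.06. Mir665, Mir134, Mir485 and Mir668 were above the filter's limit in only 8, 10, 11 and 12 tumours. Genes like these can pass the filter through the set where they are high, so the counts with the filter are descriptions.

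The mature products of the 5 called miRNA genes are shown because a miRNA recognises its targets through its seed, bases 2 to 8, given in capitals. The array's labelled cDNA was made from total RNA, so that the probe sets do not tell the 2 arms or the precursor apart. RefSeq entries (GRCm38.p6, plus strand of chromosome 12) were found for all 5 genes, 9 mature sequences in all, 5′ to 3′:
mmu-miR-665-5p: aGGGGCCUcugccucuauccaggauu
mmu-miR-665-3p: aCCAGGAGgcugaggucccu
mmu-miR-341-5p: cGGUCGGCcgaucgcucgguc
mmu-miR-341-3p: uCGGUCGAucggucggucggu
mmu-miR-134-5p: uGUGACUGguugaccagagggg
mmu-miR-134-3p: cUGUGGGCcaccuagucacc
mmu-miR-668-5p: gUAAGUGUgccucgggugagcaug
mmu-miR-668-3p: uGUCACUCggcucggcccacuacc
mmu-miR-485-3p: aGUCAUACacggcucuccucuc
The 9 seeds were all different, so that no 2 of these products share a seed.

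**Figure D5:**
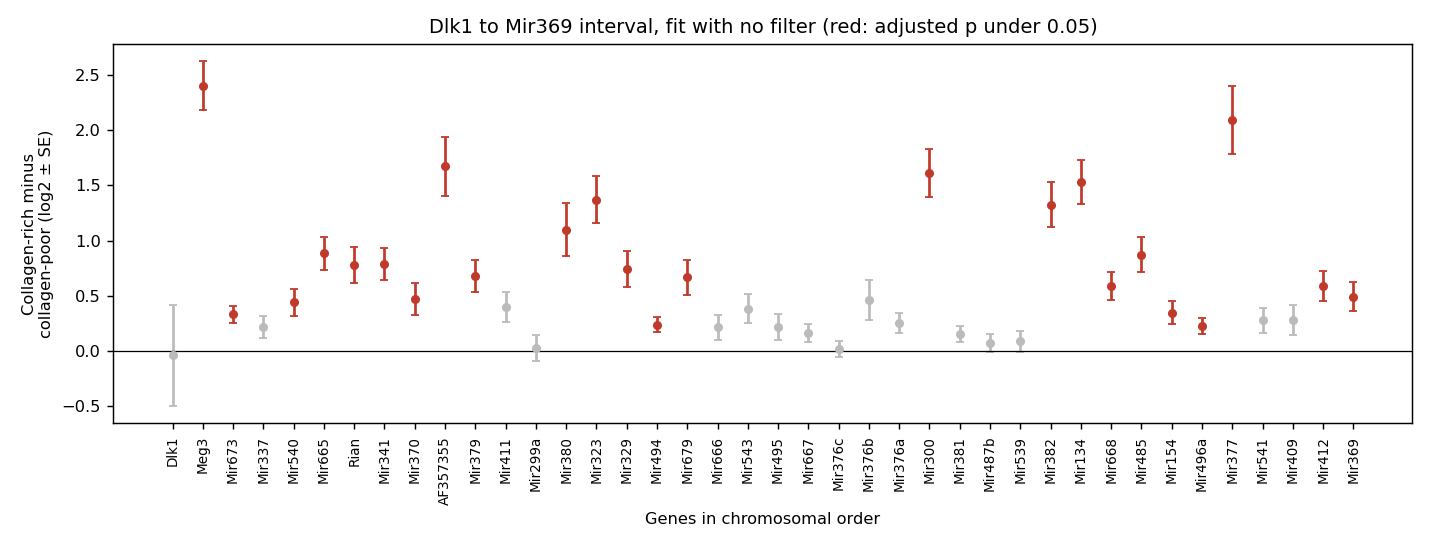
Collagen-rich minus collagen-poor difference (log2, with SE) for the genes from Dlk1 to Mir369 in chromosomal order, fitted with no filter; red marks an adjusted p under 0.05. Meg3 stands highest at 2.40, all 36 miRNA genes lie above 0, and Dlk1 lies at -0.04.

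Outside the interval, Mir200a and Mir200b belong to a family that holds back Zeb1 and Zeb2 in epithelial cells. They were singled out after their values were seen, and other members of the family are not given here. Mir200a differed by -0.49 ± 0.18 log2 (adjusted p = 0.0462) and Mir200b by -1.14 ± 0.46 (adjusted p = 0.0721). Mir200a lost its call in several other settings, among them the fit with dose as a covariate (-0.50).

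The 21 middle tumours, which the comparison of the sets did not use, gave a slope of each gene on the collagen score. No gene passed (0 of 12119, 0%; limma, lowest adjusted p = 0.0644), and 1056 had an unadjusted p under 0.05. Of the 1511 genes higher in the collagen-rich set, 1304 (86.3%) had a positive slope, against 53.5% of all genes tested. Of the 1360 lower genes, 1006 (74.0%) had a negative slope. The smallest p-values belonged to Wipi1 (slope 1.07 ± 0.19 per 1 log2 of score), Cpxm1 (2.05 ± 0.38) and Scube3 (-3.26 ± 0.59), each with an adjusted p of 0.0644. Thbs2 had a slope of 1.59 ± 0.35.

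Within the middle tumours the lists did not all repeat the direction of the sets. Slopes were positive for 23 of 23 macrophage, 12 of 12 neutrophil, 18 of 21 fibroblast and 9 of 11 cross-linking genes, and for 0 of 12 basal genes. Proteoglycan genes were positive in 6 of 11, with Ogn at 0.32, Dcn at 0.29 and Aspn at 0.20. Dpt had a slope of -0.08 and Meg3 of 0.33. Cell division genes, lower in the collagen-rich set, had a positive slope in 20 of 25. These slopes carry no call for a single gene.

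Whether the set difference was the same in sham and Si hosts was tested as an interaction, over 5 and 5 sham tumours and 7 and 7 tumours of Si hosts. No gene passed (0 of 12119, 0%, limma, lowest adjusted p = 0.166), and 634 had an unadjusted p under 0.05. Of these, 180 had a more positive set difference in Si hosts than in sham hosts, which need not be a larger one. The smallest p-values in that direction were those of Rnf122 (-1.60 in sham and 0.19 in Si hosts), Tprg (-1.60 and -0.18) and Aldh1l2 (-0.90 and 0.95). In the other direction they were those of Rnase6 (1.40 and -0.03), the interferon regulator Irf5 (1.70 and 0.29) and Arhgap30 (1.83 and 0.52), genes of leukocytes. Fitted within sham tumours alone, 705 genes were called and within Si hosts alone 878. The median of the macrophage list was 2.03 in sham and 0.65 in Si hosts, and that of the adipocyte list was 3.46 and 0.21. The fibroblast list had medians of 1.53 and 1.59, and the cross-linking list 1.57 and 1.78.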

How the data were processed

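Log2 expression values per probe set were used as deposited. The submitters' processing notes name RMA and the oligo package, without a version in the sources used here. RMA includes quantile normalization, which makes the arrays' distributions alike, so that a change shared by most genes cannot be seen; array medians lay between 5.48 and 5.80. Their number limits the precision. Of 35556 probe sets, 21218 had 1 gene symbol, 1881 several and 12457 none; 21185 matched the RefSeq gene table. A gene was represented by its probe set of highest mean (18820 genes). It was kept if above the table's median of 5.67 in at least 8 tumours, which left 12123 genes, or 12119 without the 4 ranking genes. Trp53 was not analysed here.

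Sets were compared with limma 3.58.1 in R 4.3.3 (lmFit and eBayes, no covariates, two-sided, Benjamini-Hochberg, threshold 0.05). Errors of differences are standard errors. On simulated data for the comparison of the sets (12119 genes) 36% of shifts of 0.5 log2 were recovered, 79.2% of 1, 96.4% of 2 and 99% of 3, and 1 of 10 simulated sets with no shift gave calls. Each simulated gene was drawn independently with normal errors. Genes of the tumours vary together, so these rates need not hold for them. Host doses were compared by permutation of tumours and by Fisher's exact test. Alternatives changed the filter, the size of the sets, the ranking genes, the covariates, the centring and the tumours used.

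The members and the 44 gene lists (778 genes, 714 on the array with 1 symbol, 616 tested) were chosen with earlier results of these data known. Genes are named if they rank the tumours, if they are among the 15 largest called differences in a direction, if they are among the 5 of smallest p in a list, or, for collagen, fibroblast, contractile, TGF-beta, protease and receptor lists, where the account needs them; in the middle slopes and the interaction, those of smallest p. Genes of the chromosome 12 interval and the Mir200 genes were singled out after their values were seen.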

Additional observations from a re-analysis of the deposited data

How the results depend on the processing

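The count of genes called between the sets stayed within 1.5 times of 2871 when the filter, the size of the sets, the ranking genes, array weights, the dose covariate, the code stem as a random block or the muscle level was changed, from 2045 without the tumours of high muscle level (chosen after seeing the data) to 3364 with the top and bottom 15. It was 963 with the epithelial junction level as a covariate (617 higher, 346 lower), 705 in sham tumours only and 878 in Si-host tumours only, fits with fewer tumours. Leaving out 1 tumour gave 2346 to 3002 genes. With each array centred on its median 1501 were higher and 1511 lower. Array weights gave 1 called slope in the middle tumours. With an intensity trend, array weights or no filter, no gene was called for the interaction with host irradiation. Of 153 named genes called, 59 lost their call with the junction covariate. Differences that changed sign were those of Krt8 (0.55), Krt18 (0.52), Cdh1 (0.30), Cldn3 (0.10) and Dlk1 (0.18) with the junction covariate, Krt8 in Si hosts only (0.026), Tagln with the dose covariate (0.019), Ckm without the tumours of high muscle level (-0.20), and Dlk1 with array weights (0.26), the dose covariate (0.050), the component of unnamed probe sets (0.15), the code block (0.034) and the top and bottom 10 (0.13). Cdh1 is part of the junction covariate, so its change of sign there is not a result. The cause of the other changes was not tested.

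The score difference of 30 cGy from sham (-0.0049) became 0.029 without Col3a1, 0.022 without Col5a1, 0.011 with centred arrays and 0.042 with the muscle level as a covariate; that of 10 cGy became 0.065 with this covariate and 0.013 without the tumours of high muscle level. With the replicate number as a block, Si hosts minus sham was -0.055. Replicate numbers did not pair the tumours: over 52 pairs of the same number the median correlation of deviations was -0.071, and 10 exceeded 0.1.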

Other observations

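Of 18 hypoxia and glycolysis genes tested 2 were lower and 0 higher in the collagen-rich set (median -0.11 log2, against -0.07 for all genes tested). The share called was 11.1%, against 23.7% of all genes tested. Of 20 interferon-stimulated genes 1 was higher (median 0.48). Of 13 p53 target genes 1 was higher and 1 lower (15.4% called, median 0.13), in tumours that all lack Trp53. No hormone receptor or target gene was called among 6 tested, and 1 of 13 milk protein and alveolar genes was higher and 1 lower. Targets of the mechanically regulated cofactors YAP and TAZ were higher in 4 of 12 and lower in 1 (median 0.32), with Ccn2 uncalled at 0.26. Sox10, a gene of Schwann cells that mammary epithelium also makes, was lower by a fitted difference of -1.58 ± 0.55 (limma, adjusted p = 0.0385), and this call was lost with the junction level as a covariate (-0.20).

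In the 8 pairs of tumours whose codes share a stem the score differed by 0.406 to 2.98 log2 (median 0.647), and over the 262 pairs within a dose group the median difference was 0.997. These differences were not tested.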
